A study of Rattus norvegicus with 46 samples.

Results

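The unloaded gastrocnemius of rats immobilised for 5 to 8 days was compared with that of rats immobilised for 6 h to 4 days. Arrays were chosen by their titles, which name the leg as unloaded and give 1 of the windows 6h-4d, 5-8d and 9-14d. This gave 17 of the 46 arrays of the series, 13 at 6h-4d and 4 at 5-8d, with 1 array per rat. All rats were female and of the Sprague-Dawley strain. Their ages and the exact duration for each rat are not given in the sources used here, so each window pools rats of different durations. In both windows every rat was operated on under isoflurane, which was lowered over the first days and kept low afterwards. The agent that paralysed every rat was α-cobrotoxin, from cobra venom, which occupies the acetylcholine receptor of muscle. It was given as a first dose and then by continuous infusion. Each rat was mechanically ventilated and monitored throughout. The left leg of each rat was flexed and extended passively by a lever arm for hours each day, and the arrays described here come from the other leg of the same rat. Biopsies were taken from the proximal gastrocnemius directly after euthanasia. No untreated rat was measured, so each difference sets a later window of 1 treatment course against an earlier window of the same course. The isoflurane level changed along that course, so its part cannot be told apart from that of duration. The question is how gene expression in a paralysed, unmoved muscle changed as the immobilisation went on.

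Muscle that receives no signal from its nerve is known to make acetylcholine receptors along the whole fibre instead of only at the synapse. Myogenic factors such as myogenin act on this switch, and activity of the fibre holds it back. Long paralysis under intensive care is known as a setting of muscle wasting with loss of myosin, in which protein breakdown through ubiquitin ligases and the proteasome, protein synthesis by ribosomes, and oxidative and glycolytic metabolism are all under study.

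Values are log2 signals of Affymetrix rat arrays, and 9289 genes were tested. The median signal of an array ran from 6.07 to 6.2 over all 46 arrays. Between pairs of the 17 unloaded arrays compared, the correlation over genes ran from 0.864 to 0.991. Markers of skeletal muscle fibres averaged 12.90 to 13.64 in the rats of the first window and 12.83 to 13.14 at 5-8d, near the top of the scale, which ended at 14.38. Rats are named here by the number of their unloaded leg. Rats 35 and 37 of the first window stood apart from its other 11 rats. On the first principal component of the unloaded arrays, which held 43.6% of the variance, they scored 12.36 and 7.95, the other rats of their window between -35.53 and -17.40, and the rats at 5-8d between 17.39 and 37.51. The total count and some of the list counts below are therefore also given without these 2 rats. The labels carry a date-like code with 5 values. Code 3 holds 4 rats of the first window, rats 35 and 37 among them, and 2 rats at 5-8d, rats 41 and 43. The other 2 rats at 5-8d, rats 53 and 55, have code 5, which holds no rat of the first window. Values are therefore also given with the code as a term in the fit and within code 3 alone. Codes 1, 2 and 4 hold only rats of the first window, 1, 2 and 6 of them. With the code as a term these rats do not enter the difference, whose early side rests on the 4 rats of code 3. Rats 53 and 55 then enter only through the rats at 9-14d in codes 3 and 5.

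The windows were compared with limma's moderated test in 1 fit over the 23 unloaded arrays, with p-values adjusted by Benjamini-Hochberg over all genes tested. Between the windows 3337 of 9289 genes (35.9%) changed at an adjusted p under 0.05, 2190 (23.6%) of them higher and 1147 (12.3%) lower at 5-8d. At least 2-fold changes were found for 250 higher genes (2.69%) and 256 lower genes (2.76%). For 784 genes (8.44%) the 4 values at 5-8d did not overlap the 13 values of the first window, 545 (5.87%) above them and 239 (2.57%) below, and 777 of these (8.36% of all genes) also passed the test. The median difference over all genes was 0.05. The split between higher and lower genes depends on the scaling. Of the calls on the deposited values 65.6% were higher, and after cyclic loess, which shifts the median of all genes to -0.03, 49.4% were. Without rats 35 and 37, chosen from these data for lying nearest the late rats, the test called 3943 genes, 2544 higher and 1399 lower. Such a choice favours more calls, so the higher count is no separate check. With the date-like code as a term the test called 757 genes, 501 higher and 256 lower, and 702 of these were among the 3337. Of the 169 genes named by the rule given with the processing, 91 lost their call with this term in the same direction, and 8 turned direction. A call printed without a value for the term may thus not hold with it. Within code 3 alone, where 4 rats stand against 2, it called 16 genes, 10 higher and 6 lower, and all 16 were among the 3337. The count stayed between 2233, without rat 55, and 3643, without rat 43, when 1 rat was left out.

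**Figure D1:**
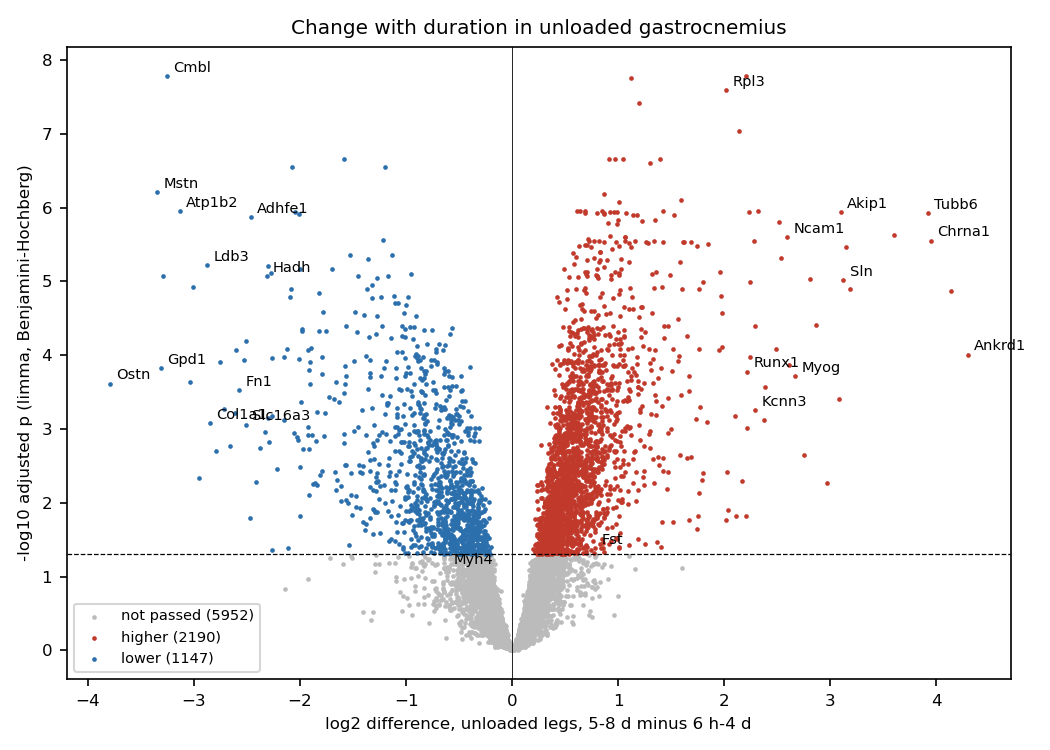
Each point is 1 of 9289 genes, with the log2 difference between 5-8d and 6h-4d on the x axis and -log10 of the adjusted p on the y axis, where the dashed line marks the 0.05 threshold. The 2190 higher genes are more numerous than the 1147 lower ones, while differences of over 2 log2 units occur on both sides, with Ankrd1 and Chrna1 at the right edge and Ostn, Mstn and Gpd1 at the left.

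Of the 5 subunits of the muscle acetylcholine receptor 4 rose. Promoters are shown for the 3 whose listed start is the outer end of the gene. These 3 also rose by the largest amounts within the group. The sequences are from RefSeq, build GRCr8, and give the 250 bases before the start of the gene, read toward the gene. Capitals mark every E-box, CANNTG, the site that myogenic factors of the MyoD family are known to bind, and CAGCTG is 1 form of it, so each CAGCTG is also counted as a CANNTG. The window of Chrna1 is chr3:78877354-78877603 on the minus strand, that of Chrnd is chr9:95310066-95310315 on the plus strand and that of Chrng is chr9:95325734-95325983 on the plus strand.
Chrna1: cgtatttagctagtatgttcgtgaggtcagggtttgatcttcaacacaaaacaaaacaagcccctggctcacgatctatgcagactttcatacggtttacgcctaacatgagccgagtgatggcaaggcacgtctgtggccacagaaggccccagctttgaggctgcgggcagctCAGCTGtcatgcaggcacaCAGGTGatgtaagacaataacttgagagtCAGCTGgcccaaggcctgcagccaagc
Chrnd: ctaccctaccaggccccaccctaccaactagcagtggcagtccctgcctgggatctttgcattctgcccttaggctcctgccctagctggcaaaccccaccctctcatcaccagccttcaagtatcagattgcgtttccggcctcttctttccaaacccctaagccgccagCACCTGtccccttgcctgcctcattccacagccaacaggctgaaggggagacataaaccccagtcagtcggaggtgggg
Chrng: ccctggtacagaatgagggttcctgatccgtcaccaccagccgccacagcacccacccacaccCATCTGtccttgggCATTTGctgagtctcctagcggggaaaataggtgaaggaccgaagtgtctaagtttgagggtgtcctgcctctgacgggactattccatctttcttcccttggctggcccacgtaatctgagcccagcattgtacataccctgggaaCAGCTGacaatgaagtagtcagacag
Chrna1 has 3 CANNTG matches, of which 2 are CAGCTG, at -75 to -70 and at -27 to -22 from its start. Chrng has 3, with CAGCTG at -26 to -21, and Chrnd has 1, CACCTG at -79 to -74. In the windows of Chrnb1 and Chrne, whose start in the table is not the outer end of the gene, 3 and 1 CANNTG were found, with 1 CAGCTG each. Both motifs read the same on both strands. Of 33465 promoter windows of the same length, 65.5% hold at least 1 CANNTG, 11.5% at least 3, 12.0% at least 1 CAGCTG and 1.04% at least 2. A match is a description of letters, and nothing was measured at these sites.

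Chrna1, the α subunit that binds acetylcholine and the toxin, read 10.30, 13.42, 13.12 and 12.61 in rats 41, 43, 53 and 55 at 5-8d, the order kept for all values below. In the first window it ran from 6.42 over a median of 8.72 to 9.75. All 4 late values lay above the 13 early ones, and the gene rose by 3.95 ± 0.47 (SE) on the log2 scale, a 15.5-fold change (adjusted p = 2.8e-06). The rise was 3.46 with the code as a term and 3.31 within code 3. Chrnd, the δ subunit, read 8.83, 10.98, 10.98 and 10.76 against 6.28 to 9.14 with a median of 8.17, so that rat 41 lay inside the early range and the other 3 rats above it. It rose 5.63-fold (adjusted p = 8.12e-05). Chrnb1, the β subunit, read 10.77, 11.19, 10.85 and 10.79, above the early range of 9.63 to 10.26, and rose 1.99-fold (adjusted p = 1.16e-06). Chrng, the γ subunit of the fetal receptor, read 7.26, 10.20, 8.33 and 8.28 against 6.37 to 7.66, with rat 41 again inside the early range, and rose 3.33-fold (adjusted p = 0.000733). Chrne, the ε subunit that replaces γ in the adult receptor, averaged 7.28 ± 0.72 (SD, n = 4) against 6.61 ± 0.81 (n = 13) and did not pass the test (difference 0.67 ± 0.44, adjusted p = 0.244).

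Partners of the receptor at the synapse also rose. Musk, the receptor kinase that starts clustering, averaged 8.91 ± 0.79 against 7.58 ± 0.63 and rose 2.51-fold (adjusted p = 0.00256), with overlapping ranges. Rapsn, the scaffold that anchors the receptor, Lrp4, the agrin receptor, and Erbb2, a neuregulin receptor, rose 1.87-fold, 1.55-fold and 1.89-fold. In all, 8 of 18 synapse genes tested rose and none fell, against 23.6% and 12.3% of all genes, and the median difference of the list was 0.35. With the code as a term 5 of the 18 were still called higher, and Musk was not among them (difference 0.81, adjusted p = 0.21). Arrays of bulk tissue cannot tell fewer cells of a type from less RNA per cell, which holds for every gene below.

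Among genes known to respond to loss of innervation, 6 of 13 rose (46.2%, against 23.6% of all genes) and 1 fell, and with the code as a term 2 were higher and 1 lower. Myog, the myogenic factor myogenin, read 11.55, 11.31, 11.98 and 11.26 against 7.13 to 11.13 with a median of 8.78. The late values did not overlap the early ones, although rats 35 and 37 of the first window, at 11.13 and 10.91, came close to them. Myog rose 6.35-fold (adjusted p = 0.00019), and with the code as a term the difference was 1.72 (adjusted p = 0.0862). Ncam1, the neural cell adhesion molecule that spreads over denervated fibres, read 11.70, 12.88, 11.76 and 12.47 against 8.32 to 10.68 with a median of 9.70, again with no overlap. It rose 6.04-fold (adjusted p = 2.53e-06) and by 2.97 with the code as a term (adjusted p = 0.000378). Runx1, a transcription factor induced by denervation, rose 4.64-fold from 10.13 ± 0.92 to 12.35 ± 0.30, with rats 35 and 37 at 11.73 and 11.87, at the top of the early range. Emb, which encodes embigin, an adhesion protein that escorts lactate transporters, averaged 6.06 ± 1.04 in the first window, under the lowest array median, and 10.20 ± 1.79 at 5-8d (difference 4.14 ± 0.58, adjusted p = 1.34e-05). Gadd45a, a growth arrest gene induced in denervated muscle, rose 5.17-fold. In it rats 35 and 37 read 11.08 and 11.13, above late rats 41 and 43 at 10.74 and 10.77. With the code as a term the difference of Gadd45a was 0.99 (adjusted p = 0.293). Cdkn1a, a cell cycle inhibitor, rose 2.62-fold. Gadd45g, a relative of Gadd45a, fell by 1.15. Hdac4, a repressor known to act upstream of myogenin after denervation, averaged 10.17 ± 0.26 against 9.94 ± 0.62 and did not pass the test (adjusted p = 0.544).

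Among genes of satellite cells and fusion, 4 of 15 rose (26.7%, near the 23.6% of all genes) and 3 fell, and with the code as a term 1 was higher and 1 lower. Myf5, a myogenic factor of satellite cells, read 8.54, 9.00, 9.04 and 7.68 against 6.36 to 7.28, with no overlap, and rose 2.99-fold (adjusted p = 5.39e-06). Its rise was 1.62 with the code as a term and 1.91 within code 3, where it also passed the test. Myod1, the founding member of the family, averaged 10.04 ± 0.79 against 8.37 ± 1.20 and rose 3.18-fold (adjusted p = 0.0171), but rats 35 and 37 read 11.24 and 10.58, above all of the 4 late rats in the first case and above 3 in the second. Within code 3 its difference was 0.18, and without rat 53 the call was lost. Mymk, which encodes the fusion protein myomaker, rose by 0.98 (adjusted p = 0.0196) and lost the call without rat 43 or rat 55. Itga7, an integrin of the fibre surface, rose by 0.78. Heyl, a target of Notch signalling, fell by 0.92 without overlap, Mef2d, a muscle transcription factor, by 0.63 and Megf10, a satellite cell receptor, by 0.36.

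**Figure D2:**
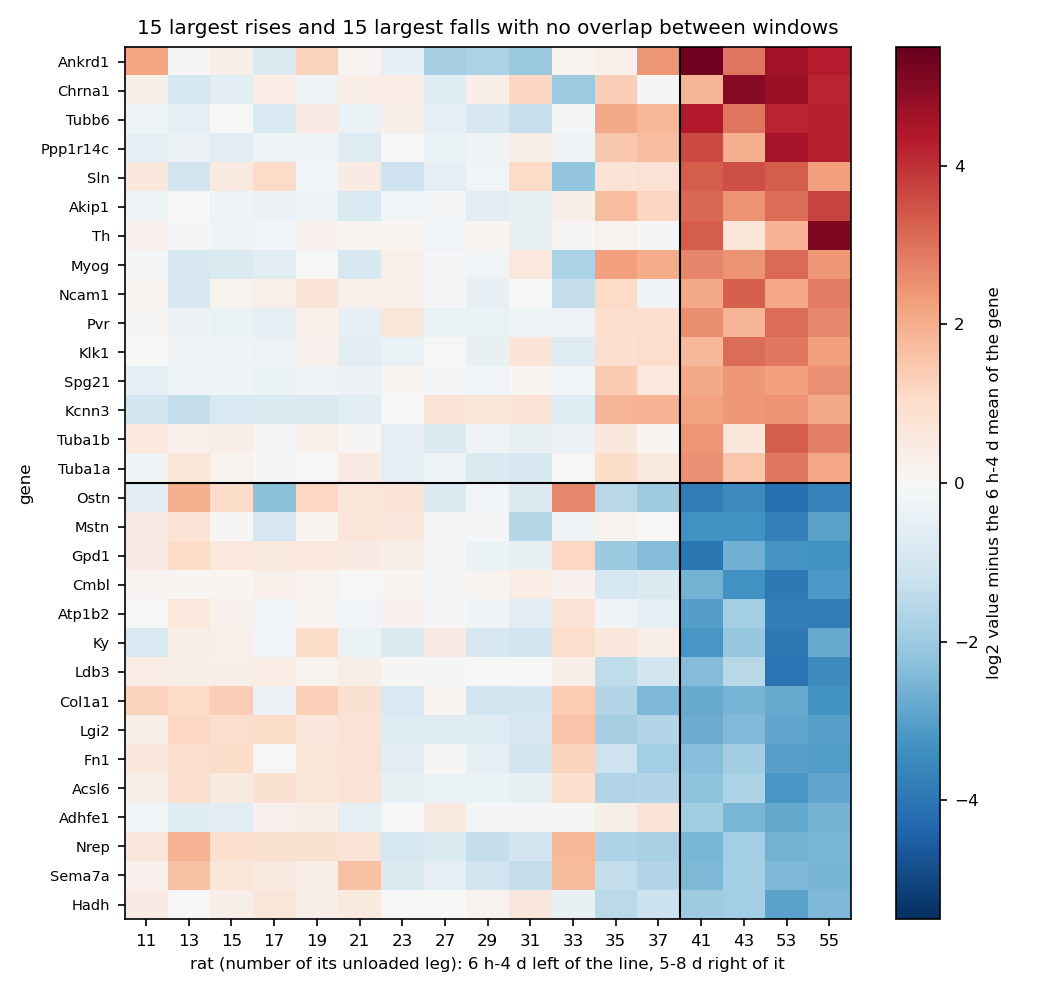
Rows are the 15 largest rises and the 15 largest falls among genes whose windows did not overlap, columns are the 13 rats of 6h-4d and the 4 rats of 5-8d, and colour is the log2 value minus the gene's mean at 6h-4d. Rats 35 and 37 have paler shades of the 5-8d colour in many rows, such as Myog, Kcnn3, Gpd1 and Lgi2, and not in Mstn or Ky.

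Outside the synapse, the largest rise without overlap was that of Ankrd1, an ankyrin repeat protein that sits on titin and responds to stretch and denervation. It read 12.87, 10.44, 12.11 and 11.81 against 5.46 to 9.94 with a median of 7.67. The early rats spread over more than 4 log2 units, and still no early rat reached the lowest late one. The rise was 19.7-fold (adjusted p = 9.79e-05). Sln, which encodes sarcolipin, an inhibitor of the calcium pump, read 13.29, 13.50, 13.29 and 12.20. In the first window it ran upward from 7.78 with a median of 10.38, and its highest value lay below all late ones. It rose 8.72-fold (adjusted p = 9.52e-06), by 3.13 with the code as a term and by 3.35 within code 3. Kcnn3, a calcium-activated potassium channel that appears in denervated muscle, rose 4.89-fold, and rats 35 and 37 at 11.98 and 12.02 came within 0.2 of the lowest late value, 12.18. With the code as a term its difference was 1.32 (adjusted p = 0.109).

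Tubulins made up 3 of the 15 largest rises without overlap. Some rises with overlap, such as those of Emb, Chrnd and Gadd45a, were larger than those of the 2 α-tubulins. Tubb6, a β-tubulin, read 11.98, 10.55, 11.81 and 11.85 against 6.34 to 9.70 with a median of 7.40, and rose 15.1-fold (adjusted p = 1.19e-06). Tuba1a and Tuba1b, α-tubulins, rose 4.84-fold and 4.88-fold. The latter pair is nearly identical in sequence, so their probe sets may share signal. The other genes among these 15 were Akip1, which binds protein kinase A (8.58-fold), Pvr, an adhesion receptor of the nectin family (5.79-fold), Klk1, tissue kallikrein (5.72-fold), and Spg21, maspardin (4.97-fold). Ppp1r14c, an inhibitor of protein phosphatase 1, and Th, tyrosine hydroxylase of catecholamine synthesis, were under the lowest array median in the first window and rose by 3.60 and 2.75. The late values of Th were spread widely, at 8.96, 6.28, 7.55 and 10.76, and its difference with the code as a term was 1.76 (adjusted p = 0.18). With that term 12 of the 15 rises without overlap were still called, with differences of 1.32 to 3.46 over all 15.

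**Figure D3:**
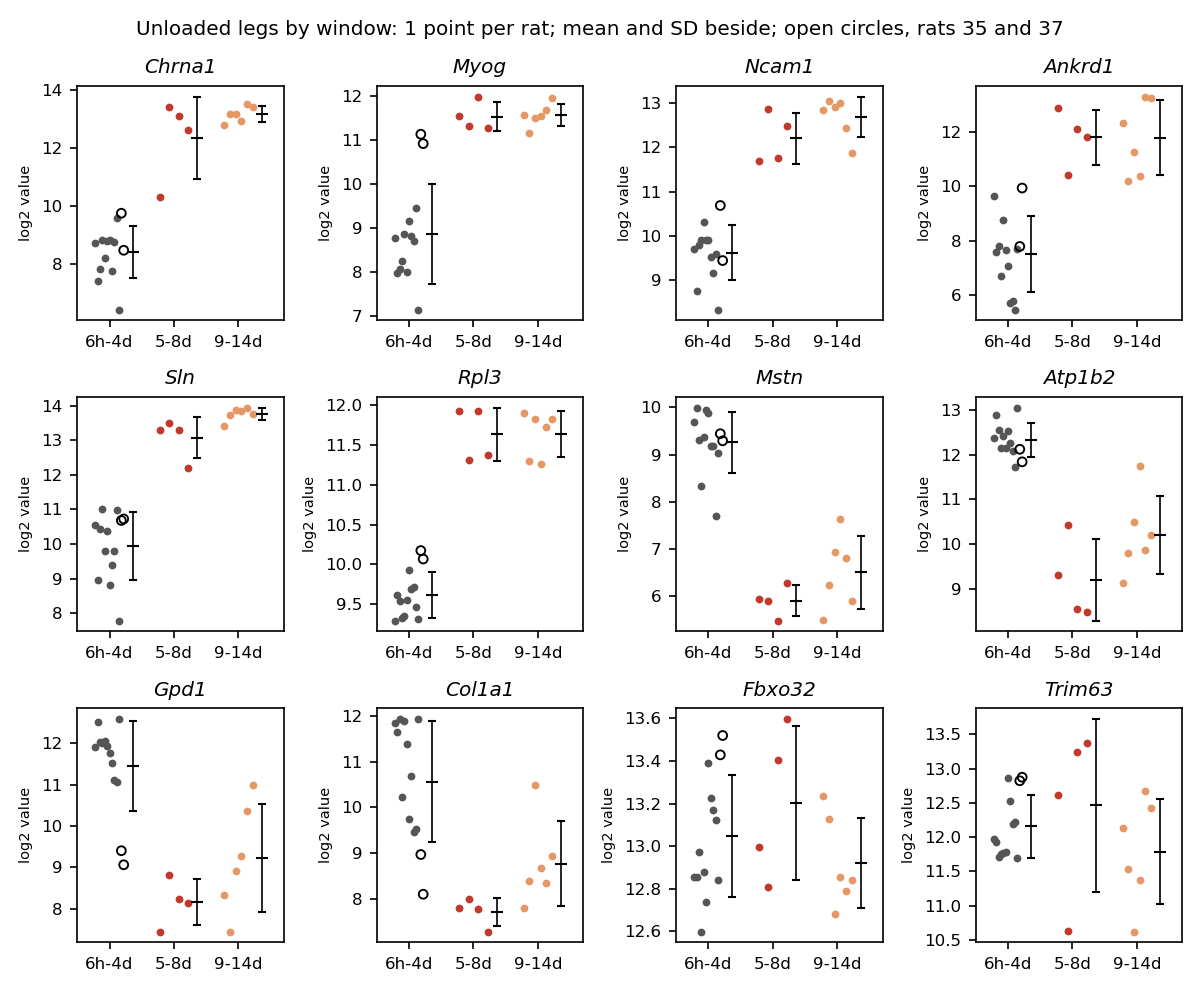
Log2 values of 12 genes in unloaded legs by window, 1 point per rat, with the mean and SD beside each group, and open circles for rats 35 and 37. Chrna1, Ncam1, Ankrd1, Sln and Rpl3 lie higher at 5-8d than in any early rat, Mstn, Atp1b2, Gpd1 and Col1a1 lie lower, and the ligase genes Fbxo32 and Trim63 overlap.

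Cytosolic ribosomal proteins moved together. Of 68 tested, 61 rose (89.7%, against 23.6% of all genes) and none fell. Without overlap between windows 52 of them lay above, where 5.87% of all genes did. The median difference was 0.55, over a range of -0.07 to 2.02. The list held under the date-like code as a term, with 59 higher, and under cyclic loess, with 55 higher. Without rats 35 and 37 it had 62, and within code 3 alone 0. Rpl3, a protein of the large subunit, read 11.92, 11.31, 11.92 and 11.38 against 9.29 to 10.17 with a median of 9.56. Its late values stood more than 1 log2 unit above every early one, and it rose 4.05-fold (adjusted p = 2.52e-08), by 1.81 with the code as a term and by 1.86 within code 3. Its muscle-specific paralogue Rpl3l was not tested. Rps12, Rpl36 and Rps21 rose 2.46-fold, 2.33-fold and 2.14-fold, with no overlap for any of the 3. Their 4, 10 and 4 probe sets gave differences of 1.03 to 1.30, 1.14 to 1.26 and 1.00 to 1.13. Ribosomal protein genes have many processed copies in the genome, and probe sets may not tell them apart.

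Translation factors rose less uniformly, with a median of 0.34. Of 32 tested, 17 were higher (53.1%, against 23.6% of all genes) and 2 lower (6.25%, against 12.3%). After cyclic loess 11 were higher, and with the code as a term 7 were, where 501 of all 9289 genes were. Eef1b2, an exchange factor of elongation, read 9.08, 8.71, 9.31 and 9.15 against 7.73 to 8.04 and rose 2.18-fold (adjusted p = 1.77e-08). It also passed the test within code 3, at a difference of 0.89. Eef1a1, the elongation factor of most tissues, rose 1.96-fold, while Eef1a2, its form in adult muscle, fell by 0.23 (adjusted p = 0.0277). Eif1a and Eif4a1, initiation factors, rose 2.06-fold and 1.82-fold. Eef2k, the kinase that inhibits elongation, fell by 0.68.

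Myostatin and musclin, both secreted by muscle, had the deepest falls among genes whose windows did not overlap. Ostn, which encodes musclin, read 5.59, 5.95, 5.32 and 5.74 against 7.20 to 12.08 with a median of 9.29. Mstn, myostatin, the inhibitor of muscle growth, read 5.94, 5.91, 5.49 and 6.29 against 7.71 to 9.99 with a median of 9.30. Both late means lay under the lowest array median, so no linear fold is given. Ostn fell by 3.80 ± 0.69 (adjusted p = 0.000243) and Mstn by 3.35 ± 0.34 (adjusted p = 6.17e-07). Mstn in rats 35 and 37, at 9.44 and 9.29, lay at the median of the first window. Over the 506 genes called at least 2-fold, these rats took a median position of 57% and 53.7% of the way from the mean of the other early rats to the late mean. Over the 30 largest changes without overlap, a choice that keeps early rats short of the late values, the position was 46.4% and 42.9%. Fst, follistatin, which binds myostatin, rose by 0.78 (adjusted p = 0.0406) and lost the call in 9 of the fits that left out 1 rat. Of all 23 genes of the growth factor and myostatin list 5 rose (21.7%, near the 23.6% of all genes) and 6 fell (26.1%, against 12.3%), or 3 and 2 with the code as a term. Among them Igf1r, Akt1, Akt2 and Smad2 rose by 0.71, 0.70, 0.46 and 0.19. Irs1, the adaptor of the insulin receptor, and Pik3r1, a subunit of phosphoinositide kinase, fell 2.24-fold and 1.79-fold, and Igfbp6, a binding protein, fell 3.76-fold. Pik3r1 lost the call without rat 41. Igf1 averaged 8.24 ± 0.46 against 8.54 ± 0.25 and did not pass the test (adjusted p = 0.298), while with array quality weights it was called lower (-0.50, adjusted p = 0.0151).

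Glycolysis and glycogen genes fell in most cases. Of 29 tested, 18 were lower (62.1%, against 12.3% of all genes) and 2 higher (6.9%, against 23.6%), with a median of -0.87. With the code as a term 11 were lower and none higher. Gpd1, the cytosolic glycerol phosphate dehydrogenase, read 7.44, 8.80, 8.22 and 8.14 against 9.06 to 12.60 with a median of 11.92. Rats 35 and 37, at 9.40 and 9.06, were the lowest of the early window and lay far from its median. The fall was 9.90-fold (adjusted p = 0.000151). Pfkfb1, a regulator of the flux through phosphofructokinase, fell 9.81-fold from 9.94 ± 0.94 to 6.65 ± 0.95. Slc16a3, the transporter that exports lactate from fast fibres, read 8.11, 7.71, 8.08 and 9.19 against 9.01 to 12.04 and fell 5.71-fold, with a difference of -2.73 with the code as a term (adjusted p = 0.00572). Fbp2, muscle fructose bisphosphatase, fell by 2.30 to a mean under the lowest array median. Hk2, hexokinase of insulin-sensitive tissues, and Gbe1, the glycogen branching enzyme, rose by 1.04 and 0.90.

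In the mitochondrial lists every call was for a lower level, against 12.3% lower over all genes. Of 33 genes of the respiratory chain and ATP synthase 25 fell and none rose, with differences from -1.15 to -0.13 and a median of -0.64, and 7 were lower with the code as a term. Ndufs7, a subunit of complex I, read 11.78, 11.90, 11.63 and 11.76 against 12.24 to 13.23, without overlap, and fell 2.19-fold (adjusted p = 4.45e-06). Sdha, the catalytic subunit of complex II, fell 2.13-fold without overlap, though early rat 35 at 10.467 all but met late rat 43 at 10.465. Ndufs1 and Ndufs3 fell 2.22-fold and 2.11-fold with overlap, since rats 35 and 37 of the first window, at 9.94 and 10.04 for Ndufs1, lay among the late rats. In the citric acid cycle and pyruvate list 15 of 18 fell and none rose, with a median of -0.74 and 7 lower with the code as a term. Idh2, mitochondrial isocitrate dehydrogenase, fell 4.27-fold from 12.21 ± 0.42 to 10.11 ± 0.97, and Mdh1, Dlat and Pdhb, of the malate shuttle and the pyruvate dehydrogenase complex, fell 2.44-fold, 2.06-fold and 1.95-fold. Fat oxidation had 10 of 21 lower, none higher and a median of -0.59, and 5 were lower without rat 53, 6 without rat 41 and 2 with the code as a term. Hadh, which acts on short-chain fatty acids, fell 4.97-fold without overlap, Acadm, the medium-chain dehydrogenase, 2.72-fold, Acaa2, a thiolase, 2.46-fold, and Fabp3, a fatty acid carrier, 2.48-fold, a call that was lost without rat 41, rat 53 or rat 55. Ppargc1a, a coactivator of mitochondrial genes, averaged 8.24 ± 0.86 against 9.23 ± 1.32 (adjusted p = 0.193), and Pdk4, which inhibits pyruvate oxidation, 13.06 ± 0.44 against 13.40 ± 0.54 (adjusted p = 0.431). Neither passed, and the differences of both had the opposite sign with the code as a term, at 0.26 and 0.15. With array quality weights both were called lower, Ppargc1a at -1.73 (adjusted p = 0.00474) and Pdk4 at -0.72 (adjusted p = 0.00491).

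Cmbl, a hydrolase of the cytosol, had the smallest adjusted p of all genes (1.63e-08). It read 8.34, 7.57, 6.96 and 7.77 against 9.93 to 11.32 and fell 9.53-fold, with a difference of -2.68 both with the code as a term and within code 3, where it passed the test. Acsl6, which activates long-chain fatty acids, fell 5.71-fold and Adhfe1, a mitochondrial hydroxyacid transhydrogenase, 5.51-fold. Lgi2, a secreted protein, fell by 2.75 to a mean under the lowest array median. Nrep and Sema7a, a small protein of regenerating nerve and a semaphorin, fell 5.18-fold and 5.03-fold, and neither passed with the code as a term (adjusted p = 0.183 and 0.148). Of the 15 largest falls without overlap 10 passed with that term, with differences of -3.11 to -1.51 over all 15.

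**Figure D4:**
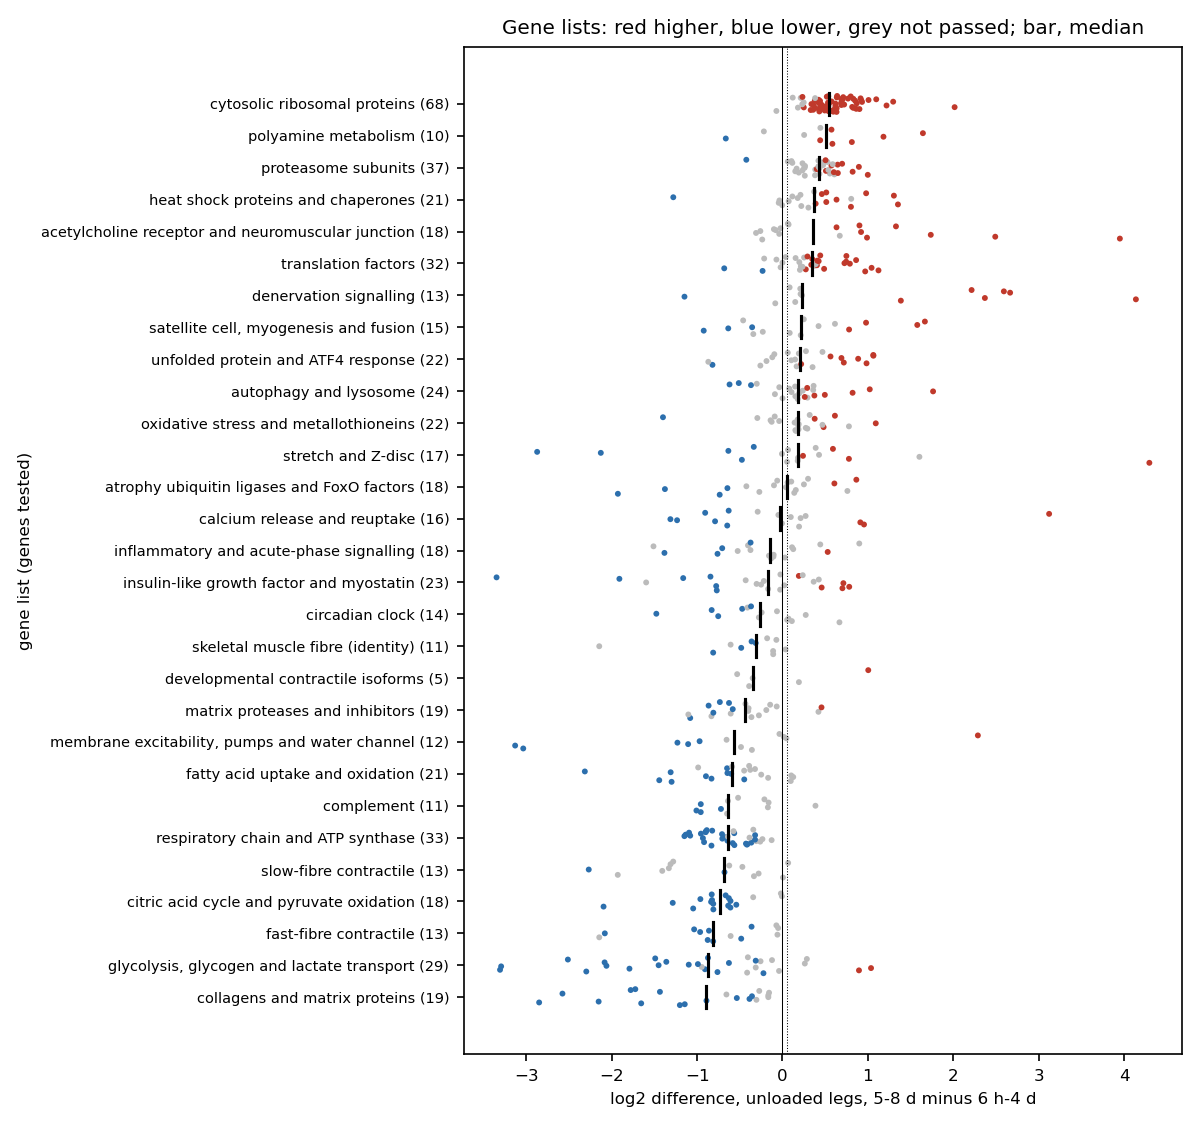
Each point is a gene, placed by its log2 difference between 5-8d and 6h-4d, in rows by gene list with the number of genes tested in brackets. Black bars are list medians, and the dotted line marks the median of all genes, 0.05. Ribosomal proteins lie to the right with a median of 0.55, and the lists of energy metabolism and of collagens lie to the left, down to a median of -0.89.

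Contractile genes fell in part. Of the 11 fibre markers 4 fell (36.4%, against 12.3% of all genes), 9 did after cyclic loess and 2 with the code as a term. Among 13 fast-fibre genes 8 fell (61.5%) and none rose, with a median of -0.81 and 5 lower with the code as a term. Mylk2, the skeletal myosin light chain kinase, read 10.07, 9.57, 10.27 and 10.04 against 11.38 to 12.66 and fell 4.23-fold (adjusted p = 2.82e-07), with a difference of -2.07 with the code as a term. Tmod4, a cap of the thin filament, fell 2.05-fold and Myoz1, a Z-disc protein of fast fibres, 1.95-fold, both without overlap. Mybpc2, fast myosin binding protein C, fell 1.83-fold from 12.51 ± 0.24 to 11.63 ± 1.17 and lost the call without rat 41, rat 43 or any of 4 early rats. Of the myosin heavy chains, Myh1 fell 1.40-fold (adjusted p = 0.0479) and lost the call in 13 of the fits that left out 1 rat. Myh4, the fastest chain, averaged 13.05 ± 1.07 against 13.65 ± 0.25 (adjusted p = 0.0763), with rat 43 at 11.47 and the other late rats between 13.29 and 13.77. It was called lower without rat 53 (-0.81), without rat 55 (-0.85) and after cyclic loess (-0.75). Myh2 and Myh7, the chains of fast oxidative and slow fibres, averaged 9.27 ± 1.15 against 11.41 ± 2.27 and 10.15 ± 0.88 against 11.56 ± 2.06, and neither passed (adjusted p = 0.148 and 0.301). In rats 35 and 37 they read 5.40 and 8.26 for Myh2 and 6.30 and 8.57 for Myh7, the lowest of the first window, and both genes passed as lower when these rats were left out (-2.98 and -2.16). Without rat 35 alone Myh2 passed as well (-2.65), and with array quality weights both did (-3.56 and -2.34). The differences with the code as a term were -0.48 and 0.47. Genes of the heavy chains are alike in sequence, so probe sets may share signal. Of 13 slow-fibre genes 2 fell (15.4%, near the 12.3% of all genes), 8 fell without rats 35 and 37, and 0 with the code as a term. The 2 genes were Myl2, the regulatory light chain (4.82-fold, adjusted p = 0.044), and Myh6 (1.60-fold, adjusted p = 0.0479). Both calls were lost without any 1 of the 4 late rats. Tnnt2, cardiac troponin T, which developing muscle also makes, rose 2.01-fold (adjusted p = 0.0413) and was not called without those rats, without any 1 of rats 41, 43 and 55 or after cyclic loess. Myh3, the embryonic heavy chain, averaged 7.14 ± 0.45 against 7.49 ± 0.74 and did not pass (adjusted p = 0.586), while with array quality weights it was called lower (-0.91, adjusted p = 0.0306). Myh8 was not tested.

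Z-disc and stretch genes went both ways, 4 of 17 higher (23.5%, as over all genes) and 5 lower (29.4%, against 12.3%), or 3 lower without rat 55. The code as a term left 2 higher and 2 lower. Beside Ankrd1, the risers were Cavin4, of the caveolae (1.72-fold), Pdlim3, a partner of actinin, and Des, desmin, whose rise of 0.24 was not called after cyclic loess. Ldb3, a core protein of the Z-disc, read 9.96, 10.79, 8.24 and 8.82 against 10.93 to 12.75 with a median of 12.54 and fell 7.33-fold (adjusted p = 6.01e-06). Fhl3, a LIM-domain protein, fell 4.37-fold, and Myot, Bag3 and Xirp2 fell by 0.63, 0.48 and 0.34. Ky, a Z-disc protease whose loss is known to cause a muscle disorder in mice, fell 8.04-fold from 9.25 ± 0.72 to 6.24 ± 0.77, with a difference of -2.86 with the code as a term. Csrp3, muscle LIM protein, averaged 11.34 ± 1.01 against 9.74 ± 1.42 and did not pass the test (adjusted p = 0.0761), while with the code as a term it did, at a difference of 2.64 (adjusted p = 0.0489).

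The membrane of the fibre changed in its pumps and channels. Atp1b2, a β subunit of the sodium pump, read 9.31, 10.43, 8.54 and 8.48 against 11.73 to 13.05 with a median of 12.26 and fell 8.76-fold (adjusted p = 1.1e-06). Fxyd1, phospholemman, a regulator of that pump, fell 2.35-fold without overlap. Aqp4, the water channel of fast fibres, read 6.87, 5.82, 6.08 and 5.64 against 6.10 to 10.40 with a median of 9.26 and fell 8.20-fold (adjusted p = 0.000233). Its lowest early values belonged to rats 35 and 37, at 6.10 and 6.65, and with the code as a term the difference was -1.52 (adjusted p = 0.121). Clcn1, the chloride channel, and Kcna7, a potassium channel, fell by 1.10 and 0.97. Of 12 such genes 5 fell (41.7%, against 12.3% of all genes) and only Kcnn3 rose, and with the code as a term 2 were lower. In calcium handling 6 of 16 fell (37.5%) and 3 rose (18.8%), or 2 and 3 with the code as a term. Jph1 and Jph2, which tie the calcium store to the surface membrane, fell 2.35-fold and 2.48-fold, while Cacnb1, a subunit of the voltage sensor, rose 1.94-fold and Fkbp1a, which binds the release channel, rose by 0.91. Without rat 53 the call for Jph2 was lost.

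Ubiquitin ligases and regulators known from atrophy had 2 of 18 higher (11.1%, against 23.6% of all genes) and 4 lower (22.2%, against 12.3%), with a median of 0.05, the same as over all genes. The code as a term left 2 higher and 1 lower. Fbxo32, atrogin-1, read 13.00, 12.81, 13.41 and 13.60 against 12.60 to 13.52 (adjusted p = 0.462), and its difference with the code as a term was -0.11. Trim63, MuRF1, read 12.62, 10.63, 13.23 and 13.37 against 11.70 to 12.87 (adjusted p = 0.564). The windows overlapped for both. Trim63 rested on rat 43, without which it passed as higher (0.91, adjusted p = 0.0318), while without rat 55 its difference was -0.0014 and with the code as a term -0.62. With array quality weights, which give less weight to arrays that stand apart, both passed as higher, Fbxo32 at 0.37 (adjusted p = 0.0136) and Trim63 at 0.97 (adjusted p = 0.00232). For both genes the early values were already high on the scale of the array. Trim55, a relative of Trim63, rose 1.82-fold without overlap (adjusted p = 0.000308), by 0.82 with the code as a term, and Stub1, a chaperone-linked ligase, rose by 0.61. Ddit4, which inhibits growth signalling under stress, fell 3.80-fold, and its difference with the code as a term was -1.04 (adjusted p = 0.227). Foxo1 and Foxo3, the factors that induce atrophy genes, fell 2.60-fold and by 0.64, and Cblb, a ligase that acts on Irs1, fell 1.66-fold. The difference of Cblb was 0.01 with the code as a term, and without rat 53 or rat 55 its call was lost.

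Of 37 proteasome subunits 36 had differences above 0, where 5157 of all 9289 genes did, with a median of 0.43 against 0.05. But 11 passed as higher (29.7%, near the 23.6% of all genes) and 1, Psme4, as lower. Without rats 35 and 37 the number was 23 higher, and with the code as a term it was 0. Without rat 53 or rat 55 it was 3, without rat 43 it was 23 and without rat 37 it was 17. Psma4, of the core particle, rose 2.00-fold (adjusted p = 0.00903) and was not called without rat 55, while rats 35 and 37 read 10.27 and 10.39 and rat 43 read 9.30, inside the early range. Psmd10, an assembly factor, Psmb4, a core subunit, and Psmd4, a ubiquitin receptor, rose 1.86-fold, 1.77-fold and 1.62-fold, and the calls of the last pair were lost without rat 53 or rat 55. Psmd4 also lost its call without rat 41, without any 1 of the early rats 11, 13, 15, 17, 19, 21 and 33, and after cyclic loess. With the code as a term its difference was -0.03. Autophagy and lysosome genes had 7 of 24 higher (29.2%, near the 23.6% of all genes) and 3 lower, a share near the 12.3% of all genes, with 4 higher after cyclic loess and none lower without rat 53. Ctsl, cathepsin L, read 12.03, 11.82, 12.45 and 12.52 against 9.69 to 11.43 and rose 3.40-fold (adjusted p = 8.21e-05). Hexa, a lysosomal hexosaminidase, and Ctsb, cathepsin B, rose 2.03-fold and 1.77-fold. With the code as a term 1 gene of the list was higher, Ctsb (0.92, adjusted p = 0.00906), and 1 lower, while Ctsl (1.11, adjusted p = 0.0597) and Hexa (0.61, adjusted p = 0.0563) lost the call. Ulk1, a kinase that starts autophagy, Wipi1, of the early membrane, and Tfeb, the lysosomal transcription factor, fell by 0.62, 0.51 and 0.37.

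Chaperones and polyamine genes were called higher more often than lower. Of 21 heat shock genes 9 rose (42.9%, against 23.6% of all genes) and 1 fell, and with the code as a term 4 were higher and 1 lower. Hsp90aa1, the inducible Hsp90, rose 2.55-fold, Hspb8, a small heat shock protein, 2.47-fold and Hsph1 1.97-fold, each without overlap, and Hspb6, a small heat shock protein abundant in muscle, fell 2.43-fold. In the unfolded protein list 8 of 22 rose (36.4%), or 3 with the code as a term, and they were chaperones and folding enzymes of the endoplasmic reticulum and the sensor Atf6. Pdia4, Pdia6, Calr and Hsp90b1 rose 2.09-fold, 2.09-fold, 1.98-fold and 1.85-fold, with rat 41 inside the early range for each of the 4. Atf5, a stress transcription factor, fell by 0.82. Polyamine genes had 6 of 10 higher (60%, against 23.6% of all genes) and 1 lower (10%, near the 12.3% of all genes). Their median was 0.51, and none was higher with the code as a term. Sat1 and Odc1, the catabolic and the synthetic key enzyme, rose 3.13-fold and 2.27-fold, and Azin1, which frees Odc1 from its inhibitor, 1.76-fold. Oaz2, an antizyme, fell 1.58-fold without overlap, and its difference with the code as a term was -1.12. Of 22 antioxidant genes 4 rose (18.2%, a lower share than over all genes), or 1 with the code as a term, with Nqo1 (2.13-fold), Txn1 (1.53-fold), Gpx4 (1.40-fold) and Sod1 (0.38 on the log2 scale), and Sod3, the extracellular dismutase, fell 2.64-fold without overlap. Nqo1 was also called within code 3, at 1.91, and lost its call without rat 41 or rat 43, and Gpx4 without rat 55. Pcna, of DNA replication, rose 1.79-fold, while of the 23 cell cycle genes listed 3 were tested.

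Matrix genes fell. Of 19 collagens and matrix proteins 13 fell (68.4%, against 12.3% of all genes) and none rose. The median was -0.89, the lowest of the 30 gene lists. Without rat 55 the number that fell was 7. Col1a1, of type I collagen, read 7.80, 8.00, 7.77 and 7.28 against 8.10 to 11.94 with a median of 10.68, and fell 7.21-fold (adjusted p = 0.000829). Rat 37, at 8.10, marked the lower end of the early range and almost met the late values. Fn1, fibronectin, fell 5.97-fold without overlap, Col1a2 4.45-fold and Col3a1 1.85-fold, the last with a call that was lost without rat 41, rat 53 or rat 55. Postn, periostin, fell by 1.78 to a mean under the lowest array median and was the only 1 of the 13 called with the code as a term (-1.99, adjusted p = 0.0144). Matrix proteases and inhibitors had 6 of 19 lower (31.6%, or 1 gene with the code as a term) and 1 higher, P4ha2, a prolyl hydroxylase of collagen, which rose by 0.46. Without rat 53 or rat 55 the lower ones numbered 3. Adamts1, Plau and Timp3 fell 2.12-fold, 1.82-fold and 1.66-fold, and Loxl2 fell by 0.81. The calls of Adamts1 and Plau were lost without rat 41.

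Markers of some cells other than fibres fell, and these values stand beside the matrix genes because some genes are in both lists. Of 11 fibroblast markers tested 9 fell, against 12.3% of all genes. Their mean signal ran from 8.44 to 9.99 in the first window and from 8.07 to 8.49 at 5-8d, and 1 was lower with the code as a term. Pi16, of adventitial fibroblasts, fell 3.60-fold without overlap, and Mfap5, of elastic fibres, 2.65-fold, while Pdgfra, which defines the cell type, averaged 7.22 ± 0.15 against 7.64 ± 0.28 and did not pass (adjusted p = 0.068). In the tendon list 3 of 5 fell, Fmod (5.32-fold), Kera (by 2.79) and Tnmd (by 1.52), while the tendon transcription factor Scx rose by 0.93 and lost that call after cyclic loess. All 4 mast cell markers tested fell, Mcpt1l1 (2.38-fold), Cpa3 (2.26-fold), Tpsb2 (2.05-fold) and Cma1 (by 0.73), and their mean ran from 6.74 to 7.98 and then from 5.83 to 6.81. All 3 erythroid genes tested fell, Hbb-b1 4.65-fold, Hbb 4.00-fold and Alas2 by 0.98, and their mean ran from 7.90 to 11.10 and then from 7.13 to 7.89. Endothelial markers had 3 of 9 lower, Flt1, Esam and Robo4, by 0.55, 0.53 and 0.43. Pericyte and smooth muscle markers had 3 of 9 lower, Cspg4, Rgs5 and Pdgfrb, by 0.78, 0.56 and 0.49, with Des higher. None of 9 adipocyte, 5 Schwann cell and 2 B cell markers passed, and Ncf1 and Cd4 were the only ones among 3 neutrophil and 3 T and NK cell markers, each lower. Without rat 41 or rat 55 the endothelial list kept a count of 1, and the calls of Esam, Ncf1, Alas2 and Scx were lost without any 1 of 3 or more single rats. With the code as a term none of the mast cell, erythroid, endothelial, pericyte or tendon markers was called. The part of these cells in the fall of matrix genes was not tested.

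Immune and clock genes that passed were nearly all lower, with Il6st as the exception. Of 16 macrophage markers 3 fell (18.8%, against 12.3% of all genes), Cd74, C1qc and C1qb, by 1.16, 1.01 and 0.96, and the mean of the list ran from 7.59 to 8.66 and then from 7.11 to 8.33. The complement list had C6 and C1r lower as well, by 0.96 and 0.72, which made 4 lower (36.4%), and none of its 11 genes was called with the code as a term. Without rat 55 the complement list had 1 lower gene and the macrophage list 1, and without rat 53 the complement list had 2. Within code 3 the differences of C1qc and C1qb were 0.03 and 0.06. Of 18 inflammatory genes Il6st, a receptor of the interleukin-6 family, rose 1.44-fold, and Il6r, Il1r1, Nfkbia and Tnfrsf1a fell by 1.38, 0.76, 0.71 and 0.37. The 4 lower genes are 22.2% of the list. Without rat 55 it had 2, and with the code as a term 1. Among 14 clock genes 5 (35.7%) passed as lower, and Nfil3, Per1, Cry2, Per2 and Tef fell by 1.48, 0.83, 0.75, 0.47 and 0.37. Cry2, a repressor of the clock, did so without overlap, and it was the only clock gene called with the code as a term (-0.82, adjusted p = 0.00256). Without rat 41 or rat 55 the clock list had 3. The hour of biopsy is not given in the sources used here.

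From 5-8d to 9-14d, where 6 rats were measured, few genes passed the test, and most of these had not moved the same way before. The same fit called 21 genes (0.226%), 17 higher (0.183%) and 4 lower (0.0431%), with 1445 at an unadjusted p under 0.05. Of the 17 higher genes, 4 had been called higher at 5-8d, 7 lower and 6 not at all. The 4 lower genes had not been called. With array quality weights 2214 genes were called, so a gene that did not pass is not shown to be unchanged. When 1 rat was left out, the count of the main fit ran from 0 without rat 41 to 544 without rat 43. Chrna1 averaged 13.17 ± 0.28 (SD, n = 6) at 9-14d against 12.36 ± 1.42 at 5-8d, Myog 11.56 ± 0.26 against 11.53 ± 0.33, Ankrd1 11.80 ± 1.38 against 11.81 ± 1.02 and Rpl3 11.64 ± 0.29 against 11.63 ± 0.34, and none of these passed. Mstn stood at 6.51 ± 0.77 against 5.91 ± 0.33 and Col1a1 at 8.77 ± 0.92 against 7.71 ± 0.31, again without a call. Mymk, the fusion gene, was among the 17, at 8.81 ± 0.98 against 6.93 ± 0.66 (adjusted p = 0.0233). Cd74 and RT1-Da, of antigen presentation, and Cd4 rose by 1.51, 1.58 and 1.37 after falling by 1.16, 1.25 and 0.63 between the first windows. Both differences use the same 4 arrays at 5-8d.

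The passively loaded legs of the same rats gave differences of similar size. For the 15 largest rises without overlap in the unloaded legs, the loaded legs differed by 1.53 to 4.63 between the windows, and for the 15 such falls by -4.36 to -2.03. Over the 250 genes at least 2-fold higher the median was 1.29 in unloaded and 1.25 in loaded legs, and over the 256 at least 2-fold lower it was -1.36 and -1.34. The change was tested against that of the loaded leg with the rat as a block, and limma called 0 of 9289 genes (smallest adjusted p = 0.419), with 557 at an unadjusted p under 0.05. Without rat 41 it called 8. The differences are thus not shown to be particular to the unloaded leg, nor to be equal in both legs.

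**Figure D5:**
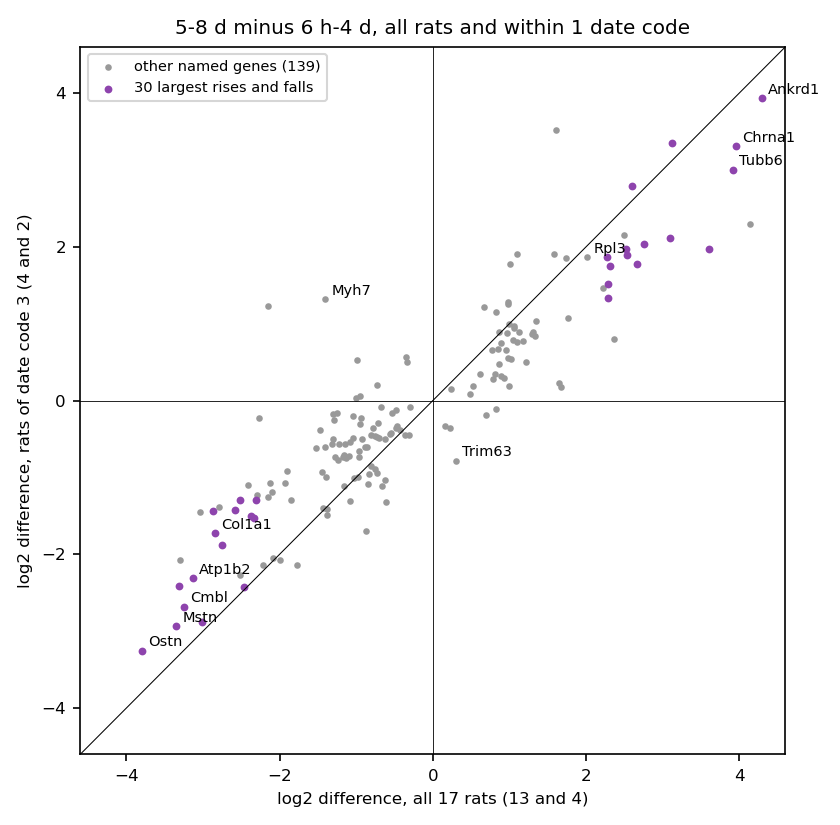
Log2 differences between 5-8d and 6h-4d for the 169 named genes, over all 17 rats on the x axis and within date-like code 3 on the y axis, where 4 rats stand against 2, with the line of equality. The 30 largest rises and falls without overlap lie from 1.33 to 3.93 and from -3.25 to -1.30 within the code, and 13 named genes, Myh7 and Trim63 among them, have the opposite sign.

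The 4 rats at 5-8d come from 2 codes, only 1 of which holds rats of the first window, and the rats of code 3 in that window include rats 35 and 37. How much of a difference goes with the code, with the duration inside a window or with these rats cannot be told apart further than by the values given with and without them. The isoflurane level changed along with duration, and its part was not tested.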

How the data were processed

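RNA of 46 gastrocnemius biopsies from 23 rats had been hybridised to Affymetrix rat arrays. The authors deposited log2 expression values, made with RMA per the submitters' processing notes, whose version is not given in the sources used here. The values were used as deposited, and the number of arrays limits the precision. Of 26208 probe sets, 15088 carried 1 gene symbol in the platform annotation, 323 several and 10797 were not listed there. The 14834 probe sets above their own array's median on at least 4 of 46 arrays were kept, and each gene was read from its brightest probe set on average, giving 9289 genes. The 23 unloaded arrays were fitted together (lmFit and eBayes of limma 3.58.1, under R 4.3.3) with 1 mean per window, Benjamini-Hochberg adjustment and a threshold of 0.05. The interaction with leg was fitted over 46 arrays with the rat as a block, paired by consecutive leg numbers in the labels, since both legs belong to 1 animal. The script was tested on simulated data.

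Groups came from the labels, which name window and leg. A gene whose mean lay under 6.07, the lowest array median, in 1 window has no linear fold here. Named genes are the 15 largest rises and 15 largest falls past the threshold whose windows did not overlap, up to 4 called genes per list and a fixed set of receptor, ligase and myosin genes. Where 5 or fewer list members passed, those outside this rule were named after their values were seen. Members and lists were chosen with earlier results of these data known. Alternatives were no filter, cyclic loess, array quality weights, an intensity trend, the date-like code as a fixed term, as a random block or with code 3 alone, the mean of a gene's probe sets, only the windows compared, no rats 35 and 37, and each rat left out in turn. Promoters came from RefSeq (GRCr8). Tables and figures were made with Python 3.11.15, pandas 2.3.3 and matplotlib 3.10.9.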

Additional observations from a re-analysis of the deposited data

Results flagged for a closer look

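Among the 4 rats at 5-8d, single rats lay apart from the other 3 in 9 of the 169 named genes, and chance alone gives about 5% of such groups. Rat 43 was low for Tubb6 (10.55, others 11.81 to 11.98) and Psma4 (9.30, others 10.60 to 10.79) and high for Nrep (7.75, others 7.01 to 7.10) and Sema7a (7.91, others 7.24 to 7.33). In all 4 genes its value lay on the side of the first window. Rat 41 was low for Chrnd (8.83, others 10.76 to 10.98) and high for Hspb6 (12.87, others 11.83 to 11.98), again on the early side. Rat 55 was low for Sln (12.20, others 13.29 to 13.50) and Runx1 (11.90, others 12.48 to 12.51), and rat 53 was high for the clock gene Per1 (9.86, others 9.15 to 9.26).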

How the results depend on the processing

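The 3337 calls between the windows became 5375 with array quality weights, 757 with the date-like code as a fixed term and 16 within code 3 alone, and ran from 2233 to 3643 when 1 rat was left out. The 21 calls between 5-8d and 9-14d became 33 after cyclic loess, 2214 with quality weights, 65 with the code as a random block, 41 without rats 35 and 37, 0 within code 3 and 0 with only the windows compared, and ran from 0 to 544 with 1 rat left out. The 0 calls for a difference between legs became 526 with quality weights and ran from 0 to 8 with 1 rat left out. Without the pairing of legs by rat, that is with no replicate block, the number was 0 as well.

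Of the 169 named genes, 69 kept their direction and side of the threshold with the code as a fixed term. In the same direction 91 lost the call and 1 gained it, and 8 turned direction. Those 8 were Cblb (0.012), Psmd4 (-0.034), Hdac4 (-0.26), Fbxo32 (-0.11), Trim63 (-0.62), Myh7 (0.47), Ppargc1a (0.26) and Pdk4 (0.15). Among them Cblb and Psmd4 had been called, and they lost the call as well. Within code 3 alone 4 rats stand against 2, and 4 rats at 9-14d enter the estimate of the spread. There 8 kept both, 148 lost the call in the same direction and 13 turned: Cblb (0.20), Psmb4 (-0.11), Psmd4 (-0.19), C1qc (0.032), C1qb (0.064), Hdac4 (-0.36), Fbxo32 (-0.33), Trim63 (-0.78), Myh2 (1.23), Myh7 (1.32), Myh3 (0.57), Ppargc1a (0.53) and Pdk4 (0.50). Of these 13, Cblb, Psmb4, Psmd4, C1qc and C1qb had been called and lost the call as well. Without rat 55 Trim63 stood at -0.0014, and without rat 43 at 0.91. Cyclic loess left 162 of the 169 as they were, quality weights 158 and leaving out rats 35 and 37 166, with none turned. The cause was not tested, except that code 3 alone holds fewer samples. Signal near the lowest array median, 6.07, limits the folds of dim genes.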

Other observations

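Outside the lists of the text, a few genes, chosen after their values were seen, moved by 2-fold or more from 5-8d to 9-14d. Ctxn3, a small membrane protein, averaged 7.03 ± 1.69 (SD, n = 4) at 5-8d and 10.15 ± 0.89 (n = 6) at 9-14d. Slc51a, a subunit of a bile acid and steroid transporter, went from 7.44 ± 1.98 to 10.07 ± 0.88 after a rise of 1.76 between the earlier windows, and Abcg1, a cholesterol exporter, from 7.13 ± 0.50 to 8.36 ± 0.63. Ctxn3 and Abcg1 had not passed between the earlier windows. P2rx6, an ATP-gated channel subunit of muscle, and Prkag3, the fast-fibre subunit of AMP-activated kinase, were lower at 5-8d than at 6h-4d (by 1.78 and 0.85) and higher again at 9-14d (by 1.38 and 1.27). Both differences use the same 4 rats at 5-8d, and the number of calls in the later comparison depended on which rat was left out.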
